A study of Homo sapiens with 9 samples.

Results

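Genes known to be imprinted in humans were followed in HEK293T cells and in 2 reporter clones derived from them. The 40 genes were chosen by symbol as established imprinted genes, and all 40 matched an Ensembl ID among the 60683 gene IDs counted. They fall into 20 imprinted clusters or single loci. Earlier results of these data, the loss of MKRN3 in the clones among them, were known when the genes were chosen, so the MKRN3 values are a description and support nothing else.

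HEK293T is an established line from human embryonic kidney that expresses the SV40 large T antigen. The clones were made by stable piggyBAC transposition of a pair of luciferase reporters into the parental cells, one with 60 CAG units (ATG-(CAG)60-Myc-NLuc) and one with 0 (ATG-(CAG)0-Myc-FLuc), followed by sorting of single cells. Clone 37 was kept for high and clone 15 for low expression of both reporters, and the parental cells are the line from which both came. Each group gave 3 libraries of ribosome-depleted, strand-specific total RNA, read as pairs of 75 bp in parental and clone 37 and of 100 bp in clone 15, and the effects of read length and of clone 15 cannot be told apart. Each reporter level is 1 clone, so a difference may belong to the clone. The labels do not say that replicates came from separate cultures, and p values then measure only the spread between these libraries.

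Gene counts summed to 10334090 to 13902872 per library in parental and clone 37 and to 18654063 to 38093340 in clone 15. All 10 HEK293T marker genes were detected, at a summed level of 1429 to 1728 counts per 1000000 gene counts (CPM) in parental, 922 to 995 in clone 37, where 8 of the 10 had a lower mean than in parental, and 4174 to 4330 in clone 15, where 4 did. Most of the difference in this sum came from the neurofilament genes NEFM and NEFL. In parental, clone 37 and clone 15, NEFM averaged 559, 137 and 2728 CPM and NEFL 235, 60.7 and 716 CPM. The summed level of blood cell markers was at most 1.92 CPM and that of trophoblast markers at most 1.30 CPM. Fibroblast markers summed to 21.4 to 54.7 CPM in parental and clone 37 and to 61.0 to 184 CPM in clone 15. Parental replicate 2 stood apart from its group: its counts differed from those of replicates 1 and 3 by a chi-square of 11.5 and 11.6 per degree of freedom, against 1.99 between those replicates. Clone 15 replicate 2 also differed more from its group (9.97 and 8.20) than the other pair did (4.53). In bulk RNA, fewer cells that express a gene and less RNA per cell cannot be told apart.

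Imprinted genes are transcribed mainly from the chromosome inherited from one parent. The choice is laid down by DNA methylation at imprinting control regions in the germ line and is kept through cell division, and one control region can govern a whole cluster through an insulator or a long noncoding RNA. Many paternally expressed members promote growth or act in brain and placenta, and several maternally expressed members restrain growth. Counts per gene do not separate the parental chromosomes, so all values below are totals over both alleles.

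The bases just upstream of the annotated starts are shown for the 4 members besides IGF2 and PHLDA2 with the largest fitted changes against parental, because an imprint is methylation of CpG dinucleotides, often at or near a promoter. They are RefSeq sequences on GRCh38.p14, 250 bases long, written 5′ to 3′ in the direction of the gene, with each CpG dinucleotide in capitals. The most upstream start is used where the table holds several (5 for GRB10 and 2 for ZDBF2). The windows are chr15:23565424-23565673 on the plus strand for MKRN3, chr15:23647868-23648117 on the minus strand for MAGEL2, chr7:50793454-50793703 on the minus strand for GRB10 and chr2:206274413-206274662 on the plus strand for ZDBF2.
MKRN3: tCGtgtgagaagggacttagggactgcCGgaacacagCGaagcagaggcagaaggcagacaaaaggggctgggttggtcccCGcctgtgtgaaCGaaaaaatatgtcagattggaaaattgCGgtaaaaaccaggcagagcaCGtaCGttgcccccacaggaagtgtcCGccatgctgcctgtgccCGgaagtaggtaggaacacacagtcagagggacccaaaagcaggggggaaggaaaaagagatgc
MAGEL2: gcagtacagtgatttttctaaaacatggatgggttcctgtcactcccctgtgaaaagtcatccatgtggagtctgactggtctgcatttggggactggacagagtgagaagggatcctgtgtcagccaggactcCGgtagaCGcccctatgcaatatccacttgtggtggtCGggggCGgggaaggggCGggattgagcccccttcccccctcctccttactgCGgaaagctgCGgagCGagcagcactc
GRB10: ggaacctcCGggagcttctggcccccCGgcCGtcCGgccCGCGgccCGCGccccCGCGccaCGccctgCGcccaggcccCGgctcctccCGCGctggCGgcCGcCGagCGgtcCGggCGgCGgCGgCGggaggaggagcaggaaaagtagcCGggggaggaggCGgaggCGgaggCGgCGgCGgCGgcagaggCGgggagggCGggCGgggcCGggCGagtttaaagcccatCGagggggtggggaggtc
ZDBF2: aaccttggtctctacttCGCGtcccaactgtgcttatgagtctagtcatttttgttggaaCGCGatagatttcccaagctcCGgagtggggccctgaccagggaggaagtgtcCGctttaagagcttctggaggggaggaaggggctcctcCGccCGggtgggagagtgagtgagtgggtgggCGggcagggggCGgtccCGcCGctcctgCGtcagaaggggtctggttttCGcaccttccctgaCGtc
The GRB10 window held 37 CpG dinucleotides and 81.6% G or C, the ZDBF2 window 15, the MKRN3 window 10 and the MAGEL2 window 8. The median over 35116 RefSeq starts was 11. These counts depend on the start: the other ZDBF2 window held 42 and the other GRB10 windows 2, 3, 19 and 40. The windows of the neighbouring genes MKRN3 and MAGEL2, which moved in opposite directions, were thus both below that median. Methylation was not measured here, so nothing is known of the state of these CpGs in the cells.

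The imprinted genes ranged from silent to abundant in these cells. Of the 40 genes, 26 reached a mean of 1 CPM in at least 1 group, 14 did not, and 15 had at least 10 CPM in parental cells. Per kilobase of exon, the highest parental levels were those of GNAS (74.4 CPM per kb), which encodes the stimulatory G protein alpha subunit, COPG2 (20.9), a coat protein subunit of transport vesicles, GRB10 (19.1), an adaptor that dampens insulin receptor signalling, and IGF2R (18.5), the receptor that clears IGF2. The low genes were unevenly spread over the parental classes. Below 1 CPM in every group were 11 of the 21 members known as paternally expressed, 3 of the 10 known as maternally expressed and 0 of the 9 whose imprint depends on isoform or tissue or is unsettled. NDN, SNRPN and SNURF share a cluster, and PEG3 and ZIM2 overlap, so the low members are not independent of each other.

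**Figure D1:**
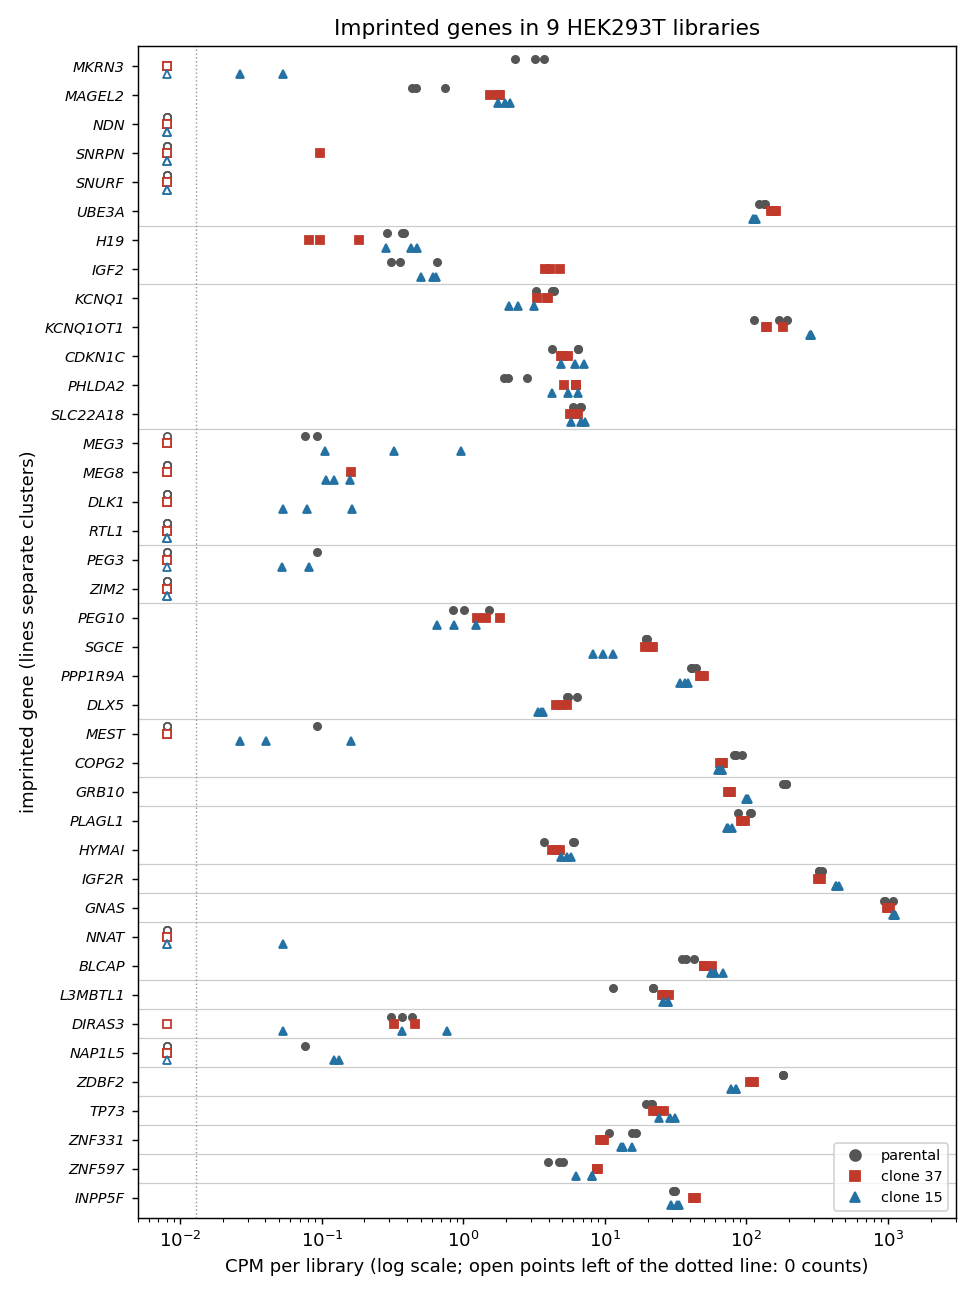
Level of each of the 40 imprinted genes in each of the 9 libraries, in CPM on a log axis, ordered by cluster; open points at the left mark libraries with 0 counts. GNAS lies highest, at 939.9 to 1125 CPM, and 14 genes stay below a group mean of 1 CPM throughout.

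Against parental cells, the number of imprinted genes called was near the background in clone 37 and above it in clone 15. A gene was called at a Benjamini-Hochberg adjusted p under 0.05 in edgeR's quasi-likelihood test, adjusted over all genes tested. In clone 37 against parental, 26 members had enough counts to be tested; 8 were called higher (26.7% of all genes were), 5 lower (27.3%) and 13 neither way. That is 13 of 26 members called, beside 54.0% of the 16501 genes tested. In clone 15 against parental, 25 members were tested; 8 were called higher (25.1% of all genes were), 10 lower (26.2%) and 7 neither way, or 72.0% beside 51.4% of 17703 genes. Between the clones, 10 of 25 were called higher in clone 37 (28.7% of all genes were), 7 lower (29.0%) and 8 neither way, or 68.0% beside 57.7% of 17712 genes. With most tested genes of the transcriptome called in each comparison, a call alone says little, and the sizes of the changes are given below.

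The members' changes had no common direction. Their median log2 fold change was -0.02 in clone 37, where that of all tested genes was 0.02, and 0.00 in clone 15, where that of all tested genes was 0.02. The median size regardless of sign was 0.32 in both sets in clone 37, and 0.44 against 0.36 in clone 15. Changes of at least 2-fold were called for 5 members in each clone, beside 9.0% of all genes tested in clone 37 and 10.1% in clone 15. They were MAGEL2, IGF2, PHLDA2, MKRN3 and GRB10 in clone 37, and MAGEL2, PHLDA2, MKRN3, SGCE and ZDBF2 in clone 15. Between the clones 2 members (IGF2 and SGCE) reached this size, beside 11.9% of all genes. MKRN3, whose loss was known beforehand, is among these counts, and without it 4 members remain in each clone. The filter on low counts kept genes with a minimum of 10 counts at the median depth (0.614 to 0.858 CPM by comparison) in 3 libraries. Members that reached this count minimum in all libraries of 1 group only were tested because of the group where they are high, namely MKRN3, MAGEL2, IGF2 and PEG10 in clone 37 against parental, MKRN3 and MAGEL2 in clone 15 and IGF2 between the clones. Without them, 10 of 22 members were called in clone 37, 16 of 23 in clone 15 and 16 of 24 between the clones, beside 54.2%, 51.3% and 57.6% of all genes treated alike. Of these members 2, 3 and 1 were called at 2-fold or more, beside 5.67%, 5.89% and 7.31% of all genes treated alike. Both comparisons with parental use the same 3 parental libraries, so they are not independent of each other.

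**Figure D2:**
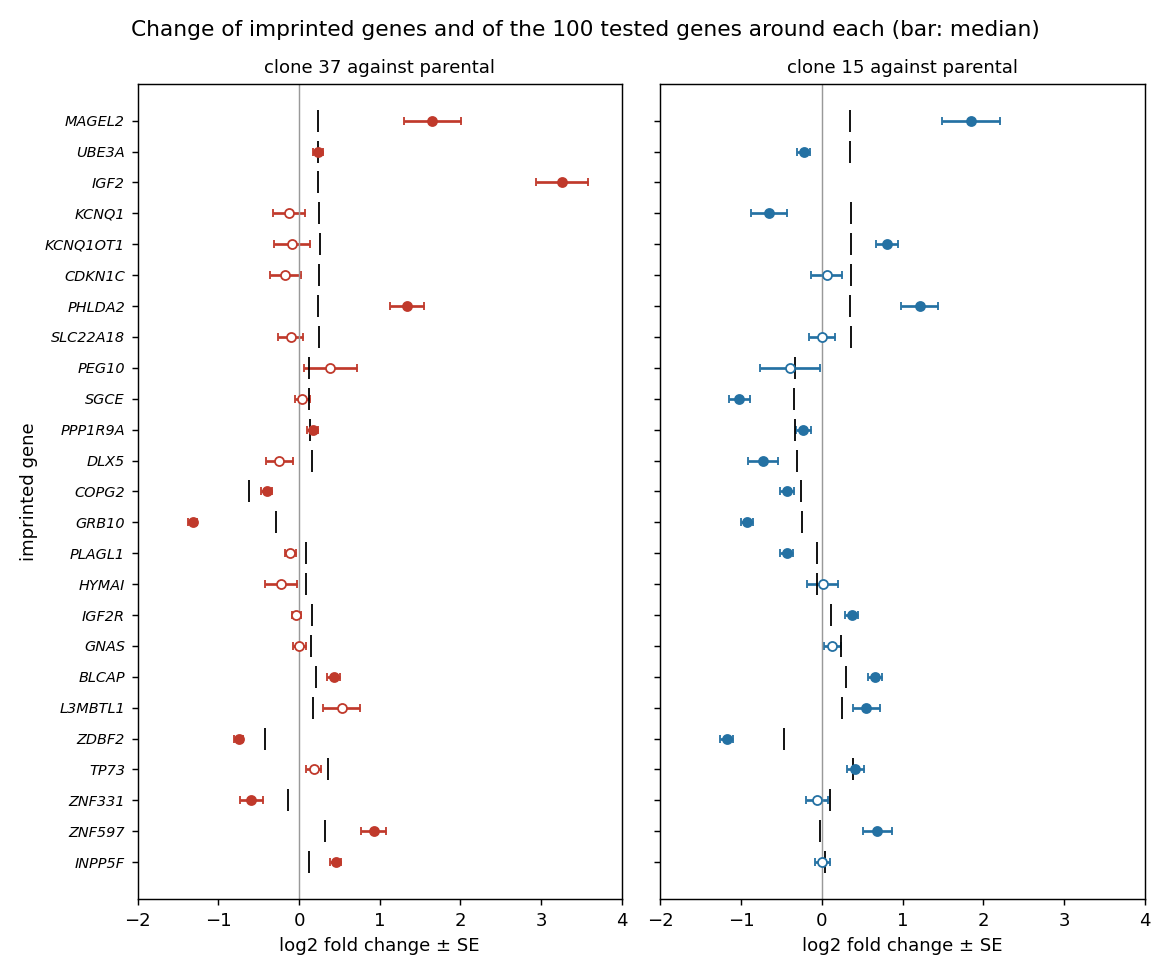
Log2 fold change against parental of each tested imprinted gene except MKRN3, with its standard error; filled points were called, open points were not, and the black bar marks the median of its 100 tested chromosomal neighbours. MAGEL2 and PHLDA2 lie far to the right of their bars in both panels, IGF2 in the clone 37 panel, and GRB10 lies to the left in both.

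In the Prader-Willi and Angelman region at 15q11-q13, MKRN3 was almost absent from the clones and its neighbour MAGEL2 rose in both clones. MKRN3 encodes a RING-type ubiquitin ligase that restrains the onset of puberty, and lies at chr15:23565674-23630075 in GENCODE 29 on GRCh38. The parental libraries held 40, 32 and 42 counts (3.70, 2.30 and 3.22 CPM). All 3 clone 37 libraries held 0, and clone 15 held 1, 0 and 1. The parental and clone values did not overlap. Against a floor of 3 counts in each clone 37 library, MKRN3 was at least 11.4-fold lower there. In clone 15 the ratio of pooled CPM, parental over clone, was 123, with a 95% exact counting interval of 33.2 to 1026. With any 1 library left out, the ratio ranged from 85.6 to 189. The lowest was without clone 15 replicate 2 and the highest without clone 15 replicate 3, which held 1 of its 2 counts. Because the libraries have no molecular identifiers, such intervals and floors describe counting error alone.

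MAGEL2, a regulator of ubiquitination and of protein sorting from endosomes that is mutated in Schaaf-Yang syndrome, is an intronless gene at chr15:23643549-23647867. Its level was 0.740, 0.432 and 0.459 CPM in the parental libraries, 1.83, 1.55 and 1.78 in those of clone 37, and 2.15, 1.75 and 1.98 in those of clone 15. Every clone library was above every parental one, while the clones overlapped each other. The log2 fold change was 1.65 ± 0.36 (SE, edgeR adjusted p = 0.00076) in clone 37 and 1.85 ± 0.35 (adjusted p = 0.00011) in clone 15. The parental values rest on 8, 6 and 6 counts, and MAGEL2 reached the count minimum in every library of the clones alone. With no minimum the changes were 1.65 ± 0.40 (adjusted p = 0.00022) and 1.84 ± 0.38 (adjusted p = 1.2e-05). The clones differed by -0.19 ± 0.26 (adjusted p = 0.55). The 100 tested genes around it had median changes of 0.23 and 0.34.

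UBE3A, the ubiquitin ligase lost in Angelman syndrome, is imprinted in neurons and read from both chromosomes in most other cells. It was at 133, 135 and 123 CPM in the parental libraries, 149, 156 and 162 in those of clone 37, and 118, 111 and 112 in those of clone 15. The 3 groups did not overlap, with clone 37 highest and clone 15 lowest. The log2 fold changes were small: 0.23 ± 0.06 (edgeR adjusted p = 0.0036) in clone 37, -0.23 ± 0.08 (adjusted p = 0.019) in clone 15, and 0.46 ± 0.06 (adjusted p = 7.8e-08) between the clones. The rise in clone 37 was the size of the neighbours' median (0.24), whereas in clone 15 the neighbours' median was 0.35, opposite in sign to UBE3A. Without clone 15 replicate 2 or 3 the change in clone 15 missed the threshold (adjusted p = 0.051 and 0.06), and so did that in clone 37 without clone 37 replicate 3 or parental replicate 3 (0.093 and 0.10). With unstranded counts the change in clone 37 missed it too (0.19, edgeR adjusted p = 0.067).

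The other 15q11-q13 members were silent at this depth. NDN, a growth-suppressing MAGE family protein, and SNURF gave 0 counts in all 9 libraries, and SNRPN, a component of the spliceosome, gave 1 count in clone 37 replicate 2 and 0 elsewhere. A count of 0 allows up to 0.0794 CPM over the pooled parental libraries, 0.0892 over clone 37 and 0.0369 over clone 15. SNRPN and SNURF share exons, and 69.3% of the exon length of SNURF and 33.6% of that of SNRPN overlap other genes on the same strand, where reads would be left out as ambiguous. The listed host transcript SNHG14, which runs from SNRPN across the snoRNA arrays towards UBE3A, gave 0 counts in parental, 1 in clone 37 and 6, 2 and 5 in clone 15. MKRN3 and MAGEL2 were therefore the only paternally expressed 15q11-q13 members tested.

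At the IGF2-H19 locus of 11p15.5, IGF2 was higher in clone 37 than in either other group. IGF2 is the fetal insulin-like growth factor, paternally expressed, and H19 is the maternally expressed noncoding RNA that shares its enhancers. IGF2 was at 0.648, 0.360 and 0.306 CPM in the parental libraries, 4.11, 4.84 and 3.81 in those of clone 37, and 0.499, 0.609 and 0.643 in those of clone 15. The clone 37 libraries lay far above the other 6, which overlapped. The log2 fold change was 3.26 ± 0.32 against parental (edgeR adjusted p = 1.9e-07) and 2.88 ± 0.27 against clone 15 (adjusted p = 4.3e-10). IGF2 reached the count minimum in all libraries of clone 37 alone, so a tested difference could only be a rise there. Fitted with no minimum, the changes in clone 37 were 3.25 ± 0.34 (adjusted p = 3.3e-20) and 2.87 ± 0.29 (adjusted p = 2.1e-21), and that in clone 15 against parental, untested otherwise, was 0.39 ± 0.54 (adjusted p = 0.66). Of its exon length, 73.7% overlaps other entries on the same strand in GENCODE 29, another entry named IGF2 and INS-IGF2 among them. Reads there would not be counted, so the level is a partial one. Counts of the other IGF2 entry are not given here.

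H19 stayed below the count filter. It gave 4, 4 and 5 counts in the parental libraries, 2, 1 and 1 in those of clone 37, and 18, 7 and 8 in those of clone 15, or 0.347 ± 0.052, 0.12 ± 0.055 and 0.395 ± 0.099 CPM (SD, n = 3). The clone 37 libraries were lowest and did not overlap the others, but they rest on 4 counts in all. Fitted with no count minimum, H19 was not called in clone 37 against parental (-1.49 ± 0.83, edgeR adjusted p = 0.20) or against clone 15 (-1.70 ± 0.80, adjusted p = 0.10). H19 is named beside the rule for named genes, after its values were seen.

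In the KCNQ1 domain of 11p15.5, PHLDA2 rose in both clones and the long noncoding RNA KCNQ1OT1 rose in clone 15. PHLDA2, a maternally expressed pleckstrin-homology protein that restrains placental growth, lies at chr11:2928273-2929455. Its level was 1.94, 2.81 and 2.07 CPM in the parental libraries, 6.30, 6.29 and 5.18 in those of clone 37, and 5.49, 6.50 and 4.24 in those of clone 15. Both clones were above parental in every library and overlapped each other. The log2 fold change was 1.33 ± 0.21 in clone 37 (edgeR adjusted p = 4.2e-05) and 1.21 ± 0.23 in clone 15 (adjusted p = 8.0e-05), and 0.12 ± 0.17 between the clones (adjusted p = 0.57).

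KCNQ1OT1 is the paternally expressed antisense RNA, unspliced and nuclear, that represses the maternally expressed genes of the domain on its own chromosome. It was at 171, 114 and 194 CPM in the parental libraries, 139, 181 and 140 in those of clone 37, and 283, 284 and 285 in those of clone 15. All clone 15 libraries were above all others, and parental and clone 37 overlapped. The log2 fold change was 0.81 ± 0.13 in clone 15 (edgeR adjusted p = 0.00033), 0.63 without parental replicate 2 and 0.45 less the median of its 100 neighbours, and -0.89 ± 0.08 in clone 37 against clone 15 (adjusted p = 1.4e-07). In clone 37 against parental it was -0.08 ± 0.22 (adjusted p = 0.78). The share of read pairs with no annotated exon on the counted strand moved with this RNA. It was 26.4%, 19.2% and 28.8% in the parental libraries, 25.7%, 29.9% and 26.6% in clone 37, and 34.6%, 34.3% and 33.7% in clone 15. Pairs that lie on an exon of the opposite strand alone are part of this share. The part of that share, and of read length, in the result was not tested.

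The maternally expressed genes of the domain did not move as one. KCNQ1, a potassium channel subunit, was at 3.24, 4.24 and 4.36 CPM in the parental libraries, 3.29, 3.97 and 3.89 in those of clone 37 and 2.44, 3.17 and 2.09 in those of clone 15. Its clone 15 libraries were the lowest, and it was called lower there (log2 fold change -0.66 ± 0.23, edgeR adjusted p = 0.019), a call that was lost without clone 15 replicate 1 or 3 or parental replicate 2 or 3 (adjusted p of 0.058 to 0.086). CDKN1C, the cyclin-dependent kinase inhibitor p57, was at 6.48, 6.47 and 4.21 CPM in the parental libraries, 4.93, 5.52 and 5.02 in those of clone 37 and 6.17, 7.07 and 4.93 in those of clone 15. SLC22A18, an organic cation transporter, was at 5.92, 6.69 and 6.74 CPM in the parental libraries, 5.66, 6.48 and 6.23 in those of clone 37 and 6.75, 7.19 and 5.79 in those of clone 15. The groups overlapped for both genes. Neither was called in any of the 3 comparisons, with changes against parental of -0.17 ± 0.19 and 0.06 ± 0.19 for CDKN1C and -0.10 ± 0.16 and 0.00 ± 0.16 for SLC22A18. The partner gene OSBPL5 was likewise not called in any comparison.

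**Figure D3:**
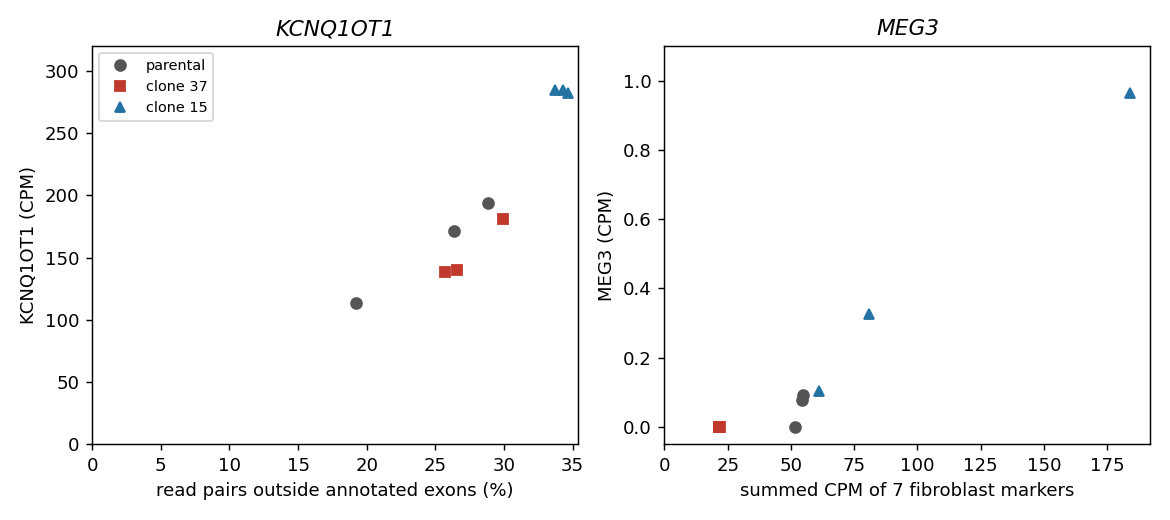
Left, KCNQ1OT1 in CPM against the percentage of read pairs with no annotated exon on the counted strand (labelled as pairs outside annotated exons). Right, MEG3 in CPM against the summed CPM of 7 fibroblast markers. Each point is 1 library. The 3 clone 15 libraries stand at the upper right for KCNQ1OT1, with 283 to 285 CPM, and clone 15 replicate 3 alone does so for MEG3, with 0.965 CPM.

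GRB10 fell in both clones, and further in clone 37. The gene lies at chr7:50590063-50793462 on the minus strand. Its imprint depends on isoform and tissue: it is maternally expressed in placenta, paternally expressed from another start in brain, and biallelic in many tissues. It was at 180.4, 191 and 189 CPM in the parental libraries, 74.3, 76.7 and 77.8 in those of clone 37, and 102, 98.7 and 101 in those of clone 15. The 3 groups were far apart, with a spread within each of at most 5.73 CPM (SD, n = 3). The log2 fold change was -1.32 ± 0.06 in clone 37 (edgeR adjusted p = 5.3e-12) and -0.93 ± 0.08 in clone 15 (adjusted p = 4.7e-10), and the clones differed by -0.39 ± 0.06 (adjusted p = 1.8e-06). The 100 tested genes around GRB10 had median changes of -0.29 and -0.24, smaller than its own. No other gene overlaps its exons in GENCODE 29.

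ZDBF2 also fell in both clones, further in clone 15. It encodes a zinc finger protein, is paternally expressed, and lies at chr2:206274663-206314438. The level was 181, 181 and 182 CPM in the parental libraries, 114, 111 and 106 in those of clone 37, and 83.9, 77.4 and 83.8 in those of clone 15. None of the groups overlapped, and their order was the reverse of GRB10's for the clones. The log2 fold change was -0.75 ± 0.06 in clone 37 (edgeR adjusted p = 5.0e-09) and -1.18 ± 0.08 in clone 15 (adjusted p = 6.1e-12), and 0.43 ± 0.06 in clone 37 against clone 15 (adjusted p = 5.5e-07). Genes around it were lower too, with median changes of -0.42 in clone 37 and -0.47 in clone 15. Relative to those medians ZDBF2 was lower by a log2 change of -0.32 and -0.71.

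**Figure D4:**
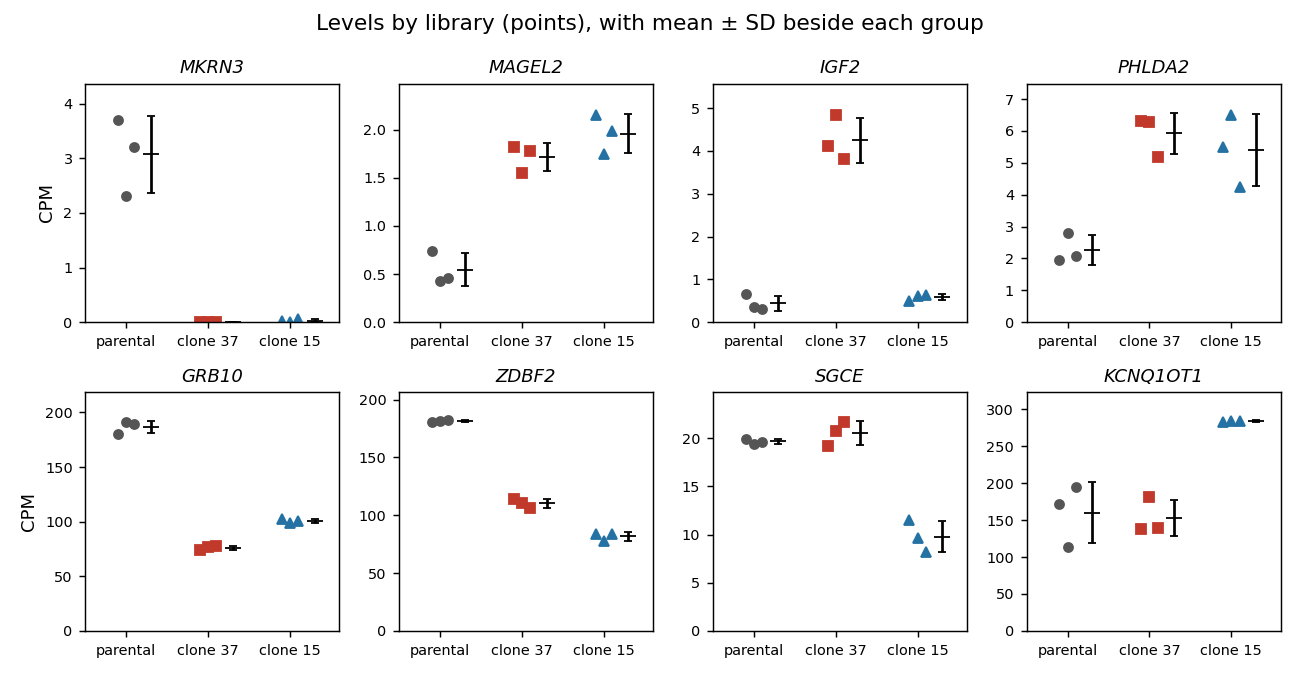
CPM in each library (points) with mean ± SD beside each group, for the 7 members called with at least a 2-fold change and KCNQ1OT1; every axis starts at 0. The parental libraries stand apart from both clones for MKRN3, MAGEL2, PHLDA2, GRB10 and ZDBF2, clone 37 alone stands apart for IGF2, and clone 15 alone for SGCE and KCNQ1OT1.

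At 7q21.3, SGCE fell in clone 15, along with its neighbours. SGCE is epsilon-sarcoglycan, the paternally expressed gene of myoclonus-dystonia, and lies head to head with the retrotransposon-derived PEG10. SGCE was at 19.98, 19.4 and 19.7 CPM in the parental libraries, 19.2, 20.8 and 21.7 in those of clone 37, and 11.5, 9.67 and 8.20 in those of clone 15. The clone 15 libraries were all below the other 6, which overlapped. Its log2 fold change was -1.02 ± 0.13 in clone 15 (edgeR adjusted p = 3.7e-07), 0.04 ± 0.09 in clone 37 (adjusted p = 0.75) and 1.06 ± 0.12 in clone 37 against clone 15 (adjusted p = 1.4e-08). The neighbours' median was -0.34 in clone 15, so SGCE was lower than the genes around it by a log2 change of -0.68.

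PEG10 was at 1.02, 1.51 and 0.842 CPM in the parental libraries, 1.83, 1.26 and 1.46 in those of clone 37, and 0.656, 0.853 and 1.23 in those of clone 15. Against parental it was not called in either clone (0.39 ± 0.33 and -0.40 ± 0.37), nor without parental replicate 2, where the changes were 0.68 and -0.07. PPP1R9A, the actin-binding neurabin, was at 40.8, 41.4 and 44.0 CPM in the parental libraries, 47.0, 49.7 and 48.1 in those of clone 37, and 38.9, 33.9 and 36.9 in those of clone 15. It was called in opposite directions in the clones, by 0.17 ± 0.07 (edgeR adjusted p = 0.042) and -0.23 ± 0.09 (adjusted p = 0.037). The call in clone 37 was lost in 14 of 15 other settings and that in clone 15 in 7 of 15, parental replicate 3 left out among them (adjusted p = 0.12 and 0.084).

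DLX5, a homeobox gene whose imprint is disputed, was at 5.37, 6.33 and 5.51 CPM in the parental libraries, 4.93, 5.42 and 4.53 in those of clone 37 and 3.68, 3.37 and 3.54 in those of clone 15. Clone 15 did not overlap the other groups, and DLX5 was called lower there (-0.73 ± 0.19, edgeR adjusted p = 0.0021), a call lost once the neighbours' median was subtracted (-0.43, adjusted p = 0.07). Between the clones, all 4 members of this cluster were called higher in clone 37, by 0.40 to 1.06, where the 100 tested genes around them had medians of 0.48 to 0.49. The call of PEG10 (edgeR adjusted p = 0.045) was lost in 10 of 15 other settings: when any 1 clone 37 replicate or clone 15 replicate 1 or 2 was left out (0.055 to 0.21), and under DESeq2, no count minimum, all 9 libraries in one fit, thinning and subtraction of the neighbours' median (0.053 to 0.46). That of DLX5 (adjusted p = 0.02) was lost in 5 of 15: without clone 37 replicate 1 or 2 (0.054 and 0.085), under DESeq2 (0.087), thinning (0.056) and subtraction of the neighbours' median (a change of 0.01, adjusted p = 0.96). The listed partners of the cluster did likewise: CASD1, PON2, PDK4, DLX6 and DLX6-AS1 were each called lower in clone 15 against parental, by -0.52 (DLX6) to -0.90 (DLX6-AS1), and each higher in clone 37 against clone 15. Against parental in clone 37, PON2, an intracellular lactonase, was the 1 of these 5 that was called (0.24 ± 0.07, adjusted p = 0.01). TFPI2 was not called in any comparison.

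Among the remaining members, most changes were under 2-fold. ZNF597, a maternally expressed zinc finger gene, was at 3.96 to 5.09 CPM in parental, 8.74 to 8.95 in clone 37 and 6.29 to 8.15 in clone 15, and was called higher in both clones (log2 fold changes 0.92 ± 0.16 and 0.69 ± 0.18). With the strands counted together the call in clone 15 was lost (0.40, edgeR adjusted p = 0.055). BLCAP, an apoptosis-related gene that hosts the imprinted NNAT in its intron, was at 35.3 to 42.4, 50.2 to 56.9 and 56.6 to 67.9 CPM and was also called higher in both (0.43 ± 0.08 and 0.66 ± 0.09), by 0.22 and 0.35 less its neighbours' median. COPG2 was called lower in both (-0.40 ± 0.07 and -0.43 ± 0.09). In clone 37 the genes around COPG2 fell further than it did, with a median of -0.62, and in clone 15 its call was lost once their median was subtracted (-0.17, edgeR adjusted p = 0.11).

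Clone 37 alone, against parental, had calls for INPP5F, a phosphoinositide phosphatase (0.45 ± 0.07), and ZNF331, a KRAB zinc finger gene (-0.59 ± 0.15), and the clones differed for both (0.44 ± 0.08 and -0.53 ± 0.12). Clone 15 had calls for IGF2R (0.37 ± 0.08), PLAGL1 (-0.44 ± 0.08), TP73 (0.41 ± 0.11) and L3MBTL1 (0.55 ± 0.17). PLAGL1 is the paternally expressed zinc finger growth suppressor of 6q24, TP73 a p53 relative, and L3MBTL1 a chromatin-compacting reader of methylated histones. Less the median of the 100 genes around them, the calls of TP73 (0.02, edgeR adjusted p = 0.88) and L3MBTL1 (0.30, adjusted p = 0.18) were lost, as was that of ZNF331 between the clones (-0.20, adjusted p = 0.16). The clones differed for IGF2R (-0.40 ± 0.05) and PLAGL1 (0.33 ± 0.06) and, near the threshold, for TP73 (-0.23 ± 0.10, edgeR adjusted p = 0.04), but not for L3MBTL1 (-0.02 ± 0.08, adjusted p = 0.83). GNAS was at 939.9 to 1125 CPM and was called only between the clones (-0.13 ± 0.05, adjusted p = 0.028). That call was lost in 7 of 15 other settings. These were any 1 clone 37 replicate or clone 15 replicate 1 left out (adjusted p of 0.073 to 0.12), unstranded counts (0.099), all 9 libraries in one fit (0.18) and subtraction of the neighbours' median (0.27). The call of TP73 between the clones was lost in 6 of 15: without replicate 2 or 3 of either clone (0.082 to 0.19), under DESeq2 (0.12) and with unstranded counts (0.079). HYMAI, the noncoding RNA that shares the 6q24 imprint, was at 3.74 to 6.01 CPM and was called in none.

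Parental replicate 2 bore on several of these genes. Of the 26 members that reached 1 CPM in a group, 5 were lower there than 75% of the next lowest parental library: MKRN3, KCNQ1OT1, HYMAI, L3MBTL1 and ZNF331. L3MBTL1, for example, was at 21.7, 11.4 and 21.9 CPM in parental, 25.4 to 28.4 in clone 37 and 25.9 to 27.9 in clone 15. Both clones were above all parental libraries, and while only clone 15 was called here (edgeR adjusted p = 0.018, against 0.091 in clone 37), clone 37 was called too in 6 other settings at a change of 0.26 to 0.65, DESeq2 (adjusted p = 0.012), no count minimum (7.5e-06), unstranded counts (0.011) and all 9 libraries in one fit (0.013) among them. With any 1 clone 15 replicate left out, the call in clone 15 was lost (adjusted p of 0.067 to 0.11). Without parental replicate 2 the change in clone 37 was 0.26 in place of 0.53 and was called (adjusted p = 0.0093), and that in clone 15 was 0.31 in place of 0.55 (adjusted p = 0.015). HYMAI in clone 37 was then called lower (-0.43, adjusted p = 0.034), PLAGL1 in clone 37 too (-0.21, adjusted p = 0.00031), and GNAS in clone 15 higher (0.23, adjusted p = 0.0029).

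The 14 members below 1 CPM included 11 of the 21 known as paternally expressed. NDN, SNURF, RTL1 and ZIM2 gave 0 counts in all 9 libraries. PEG3, a zinc finger regulator of growth and maternal behaviour, gave at most 2 counts in a library, MEST, a hydrolase-like growth gene, at most 3, and NNAT, a small membrane proteolipid, 1 count in all. DIRAS3, a growth-inhibiting Ras relative, ranged from 0 to 0.772 CPM without separating the groups. NAP1L5 gave at most 5 counts.

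At 14q32, the DLK1-MEG3 cluster was near silent in parental cells and clone 37 and gave a few reads in clone 15. MEG3, the maternally expressed noncoding RNA of the cluster, gave 1, 0 and 1 counts in parental, 0 in all of clone 37, and 4, 8 and 18 in clone 15 (0.105, 0.325 and 0.965 CPM). The ratio of pooled CPM, clone 15 over parental, was 6.96 with a 95% exact counting interval of 1.77 to 60.1. Of the 30 clone 15 counts 18 came from replicate 3, without which the ratio was 3.61 (0.805 to 33.3); without clone 15 replicate 1 it was 11.4 and without parental replicate 2 it was 4.40. DLK1, a transmembrane Notch-like inhibitor of differentiation, gave 0 counts in the other groups and 3, 4 and 1 in clone 15. MEG8 gave 0 counts in parental, 2 in clone 37 and 6, 3 and 2 in clone 15. These genes lie outside the rule for named genes and were chosen after their values were seen, and none passed the count minimum. Fitted with no minimum, MEG3 was called higher in clone 15 than in parental (2.83 ± 0.95, edgeR adjusted p = 0.015), and DLK1 and MEG8 were not called (adjusted p = 0.18 and 0.099).

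Fibroblast markers, like MEG3, were highest in clone 15 replicate 3. Their summed level was 61.0, 81.0 and 184 CPM in clone 15 replicates 1, 2 and 3, against 51.7 to 54.7 in parental and 21.4 to 21.9 in clone 37. Of the 7 markers, 5 had a higher mean in clone 15 than in parental (COL1A1, COL1A2, DCN, PDGFRA and THY1) and 2 a lower one (COL3A1 and LUM). COL1A2 and THY1 were at 0 counts in all parental and clone 37 libraries, and COL1A2 gave 213, 300 and 1059 counts in clone 15. Not every marker had the order of MEG3 over these libraries: PDGFRA was at 4.07, 3.21 and 5.58 CPM and DCN at 0.158, 0.122 and 1.23. The part of these genes' source in the MEG3 reads was not tested.

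The members were also set against the median change of their chromosomal surroundings. Of the 26 tested in clone 37, 6 differed by more than 0.5 (log2) from the median of the 100 tested genes around them, namely MKRN3, MAGEL2, IGF2, PHLDA2, GRB10 and ZNF597, and 7 lay within 0.2. Of all genes, 23.8% differed by that much. In clone 15, 9 of 25 did so: MKRN3, MAGEL2, UBE3A, KCNQ1, PHLDA2, SGCE, GRB10, ZDBF2 and ZNF597, beside 28.5% of all genes. Between the clones 4 of 25 did (IGF2, KCNQ1, KCNQ1OT1 and SGCE), beside 28.5%. The call of KCNQ1 between the clones (0.53 ± 0.21, edgeR adjusted p = 0.034) was lost in 7 of 15 other settings. MKRN3 is counted in both comparisons with parental, although its loss was known beforehand.

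Few of the clusters' other genes were expressed. Of 49 listed partner genes 45 matched an ID and 13 had enough counts to be tested. In clone 37 against parental 3 were called higher (PON2, SGK2 and NAA60) and 1 lower (ZNF264), or 30.8% beside 54.0% of all genes. In clone 15 against parental 1 was called higher and 6 lower, or 53.8%, near the 51.4% of all genes. The 1 higher gene was GNAS-AS1, the antisense RNA of the GNAS locus, at 11.1, 7.41 and 13.32 CPM in the parental libraries, 7.40, 9.48 and 8.50 in those of clone 37, and 21.0, 23.0 and 21.1 in those of clone 15. The clone 15 libraries were above all others (log2 fold change 1.01 ± 0.14, edgeR adjusted p = 2.0e-06, and -1.35 ± 0.11 in clone 37 against clone 15). The share of read pairs with no exon on the counted strand was given above for KCNQ1OT1. It was highest in clone 15 and lowest in parental replicate 2, and its part in this result was not tested. SGK2 in clone 37 had the largest partner change there (1.32 ± 0.48), from 0.607 to 1.53 CPM with overlapping groups. Median log2 fold changes of the tested partners were -0.10 in clone 37 and -0.48 in clone 15, and 5 of the 6 lower in clone 15 lie at 7q21.3.

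Genes that set or keep imprints changed in both directions. Of 29 listed, 19 were tested in clone 37 against parental, with 5 called higher and 8 lower (68.4%, beside 54.0% of all genes), and 20 in clone 15, with 5 higher and 8 lower (65.0%, beside 51.4%). Their median log2 fold changes were -0.03 and -0.08. DNMT3A, the de novo DNA methyltransferase that lays down germline imprints, fell in both clones, from 97.2, 93.7 and 96.5 CPM in parental to 47.4, 49.2 and 48.4 in clone 37 and 43.9, 46.1 and 49.9 in clone 15. No clone library came near a parental one (log2 fold change -1.01 ± 0.06, edgeR adjusted p = 2.9e-10, and -1.07 ± 0.08, adjusted p = 7.8e-11). DNMT3B, its partner enzyme, rose in both (0.54 ± 0.07 and 0.68 ± 0.08).

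DNMT1, the maintenance methyltransferase, was called in none of the 3 comparisons (397, 440.2 and 413 CPM on average in parental, clone 37 and clone 15). ZFP57, the zinc finger protein that guards imprints in the early embryo, gave 0 counts in parental and at most 3 in a library elsewhere, whereas ZNF445, the related factor, was at 162 CPM on average in parental and was called lower in both clones (-0.31 ± 0.07 and -0.20 ± 0.08). TRIM28, the co-repressor both recruit, was called in opposite directions (-0.29 ± 0.06 in clone 37 and 0.30 ± 0.09 in clone 15). CBX5, the heterochromatin protein HP1 alpha, fell in clone 15 (-0.93 ± 0.09) and differed between the clones (1.08 ± 0.05). CTCFL, the germline relative of the insulator protein CTCF, and TLE6, a subunit of the maternal complex of the oocyte, had larger changes at group means of at most 1.33 CPM: 1.24 ± 0.40 and -1.73 ± 0.59 in clone 15. Each reached the count minimum in all libraries only of the group where it was higher, so the filter favoured that direction. CTCFL was at a mean of 0.555 CPM in parental, 0.111 in clone 37 and 1.30 in clone 15, and was lower in clone 37 than in clone 15 by a log2 change of -3.44 ± 0.60 (edgeR adjusted p = 2.0e-05). Against parental in clone 37 it passed no minimum, and fitted without one it was called lower (-2.17 ± 0.73, adjusted p = 0.014). Of the TET enzymes, which oxidise methylcytosine, TET1 and TET3 were called lower in both clones (-0.23 to -0.52) and TET2 in clone 37 (-0.35 ± 0.07). The histone demethylase KDM1B, which acts in the oocyte, was called higher in clone 37 (0.31 ± 0.06) and lower in clone 15 (-0.29 ± 0.08).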

How the data were processed

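Raw gene counts were deposited, with 1 table for each library. Per the submitters' processing notes, FastQC 0.11.9, STAR 2.7.10a and the build hg38 were used; the annotation release is not given in the sources used here. The strand column that held 92.6% to 94.0% of stranded counts was taken, and the 4 summary rows, which name no gene, stayed out. Read pairs with no exon on the counted strand were 19.2% to 34.6%. No column of per-sample values was left unmapped. CPM is counts per 1000000 gene counts. The test was edgeR's quasi-likelihood fit (edgeR 4.0.16 in R 4.3.3; glmQLFit, robust, then glmQLFTest) after filterByExpr and TMM normalisation, on the 6 libraries of each comparison, with Benjamini-Hochberg adjustment over all genes tested. The script was tested on simulated data. Of 60683 IDs, 60370 had a symbol; positions and overlaps are from GENCODE 29 on GRCh38, where 58496 IDs matched. Python 3.11.15 was used for the rest.

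A member was given library by library when called with at least a 2-fold change, or when in a cluster with such a member and at 1 CPM or more in a group. From each list of other genes, up to 6 called genes with the largest change were to be named, with those in such clusters; others were named for their role, after their values were seen. Members and lists were chosen with earlier results of these data known. Promoters in the RefSeq table were had for 26 of the 40 members. Alternatives were RLE factors, DESeq2 1.42.0, other count filters, unstranded counts and all 9 libraries fitted together. Further ones were subtraction of the neighbours' median, a replicate block, each replicate left out, and thinning to the smallest total of gene counts. Thinning leaves read length and the share of read pairs with no exon on the counted strand unequal.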

Additional observations from a re-analysis of the deposited data

Results flagged for a closer look

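UBE3A and PPP1R9A were called in opposite directions in the clones, PPP1R9A with calls that most other settings for clone 37 and 7 of 15 for clone 15 did not keep, and the direct test of clone 37 against clone 15 called both. For UBE3A the log2 fold change against parental was 0.23 in clone 37 and -0.23 in clone 15, and clone 37 exceeded clone 15 by 0.46. For PPP1R9A these were 0.17, -0.23 and 0.40. Less the median of the 100 genes around it, UBE3A was at -0.0067, -0.57 and 0.50 and PPP1R9A at 0.0378, 0.10 and -0.0877.

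Reads on the strand opposite to a member are left out of that member's own counts. For 6 members they were above the parental range in every library of a clone. There they reached at least 10 reads and at least 2 times the parental mean. The share of all genes that meet this rule was not computed, and clone 15 was read deeper than parental. For GNAS, opposite to which GNAS-AS1 lies, the mean was 12.3 CPM in clone 15 against 6.05 in parental. For NNAT, opposite to which BLCAP lies, it was 5.36 in clone 37 and 6.34 in clone 15 against 2.36 in parental. Such reads that fall in exons of GNAS-AS1 or BLCAP count for those genes, whose changes are given above, and are not a separate result. The other 4 members were low in clone 15: 0.519 CPM for UBE3A (0.0564 in parental), 0.329 for SLC22A18 (0.0255), 0.385 for PLAGL1 (0.075) and 0.366 for IGF2R (0.130). In clone 15 replicates 1, 2 and 3 these were 5, 14 and 16 reads for UBE3A and 12, 6 and 8 for SLC22A18. They were 25, 7 and 4 for PLAGL1 and 6, 6 and 13 for IGF2R.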

How the results depend on the processing

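Of 1140 values of 76 member results under the alternatives, 1048 kept their side of the threshold, 45 of them with a changed sign in results that were called in neither setting. Of the rest, 75 lost a call with the same sign, 13 gained one and 4 called values changed sign, of which only COPG2 was still called. These 4 came with the median change of the 100 neighbouring genes subtracted: UBE3A (-0.0067) and COPG2 (0.22, adjusted p = 0.014 by edgeR) in clone 37 against parental, PPP1R9A in clone 15 against parental (0.10) and PPP1R9A between the clones (-0.0877). That subtraction also left 4 members called lower in clone 37 than in clone 15, in place of 7, while the share of all genes called lower fell from 29.0% to 25.2%. Without 1 replicate 6 to 9 members were higher and 5 to 7 lower in clone 37 against parental, 7 to 9 and 7 to 10 in clone 15, and 7 to 9 and 5 to 6 between the clones. The shares of all genes then ranged from 19.8% to 28.2% higher and 23.6% to 31.2% lower in clone 37, 19.9% to 24% and 22.7% to 24.7% in clone 15, and 22.9% to 29.0% and 24.4% to 31.2% between the clones. Of 48 calls, 19 were lost or reversed in at least 1 setting, 13 of them without the neighbour setting. No call of PHLDA2, GRB10, ZDBF2, SGCE or KCNQ1OT1 was lost in any setting. None of MKRN3, MAGEL2 or IGF2 was lost either. The loss of MKRN3 was known beforehand, and MKRN3, MAGEL2 and IGF2 were tested through the group where they are high. Their kept calls are therefore a description and support nothing else. The count minimum left 14 of the 40 members untested in clone 37 against parental, and for those at 0 counts only an upper limit is known. Leaving out members that passed it through 1 group only, a choice made after seeing the data, moved no count of members called higher or lower by over 1.5 times, but the members called at 2-fold or more went from 5 to 2 in clone 37, from 5 to 3 in clone 15 and from 2 to 1 between the clones.

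Replicate numbers are shared between groups, but same-numbered libraries did not deviate together (correlations of -0.162 to 0.023), so they share only a number. A replicate block gave 7 members higher and 5 lower in clone 37, 8 and 10 in clone 15, and 10 and 7 between the clones, beside 25% and 25.7%, 24.1% and 25.1%, and 29.7% and 29.5% of all genes; PPP1R9A in clone 37 was the 1 call it changed.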
